A study of Mus musculus with 2 samples.

Results

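The regions described here are DNase-seq peaks that were strong in one library and whose called interval overlapped no peak of the other. Many of them lay beside a peak of the other library, as the gaps below show. They were selected on the deposited values themselves: a peak entered when its signal was 1 or more and it shared no base with any peak of the other library's longer peak list. Of 71302 strong peaks in both libraries together, out of 325326 peaks in all, 10110 met this rule. Replicate 1 supplied 413 of its 24133 strong peaks (1.71%, 95% exact Clopper-Pearson interval 1.55 to 1.88), and replicate 2 supplied 9697 of 47169 (20.6%, 20.2 to 20.9). With replicate 2 held to as many of its strongest peaks as replicate 1 has strong peaks, 24133, it supplied 1054. All such intervals cover counting error only. They count each peak as independent, though some members lie beside or overlap one another, as at Ier2 and Mef2a. Over all peaks of any signal, 23.2% of replicate 1 and 79.8% of replicate 2 had no overlap, so strong peaks went without overlap less often than peaks at large in both libraries.

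Both libraries were made from gastrocnemius, the main calf muscle, of female B6CASTF1/J mice aged 2 months, an F1 hybrid strain. They form 1 untreated group of 2 libraries. The labels describe a different female for each library yet list a single donor for both, so the number of animals is uncertain. Each set rests on 1 library and therefore has no replicate, and no p-value is given. Sequencing depth is unknown, and its part in the difference between the sets was not tested.

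DNase I cuts DNA where nucleosomes are displaced, so DNase-seq peaks mark promoters, enhancers and insulators that are accessible in at least some cells of a tissue. Skeletal muscle is dominated by the nuclei of multinucleated fibres, and its capillaries, pericytes, fibroblasts, tendon cells, macrophages and nerve sheaths contribute the remainder. Promoters of widely used genes are open in most of these cells, whereas distal elements are often restricted to a cell type. Within an accessible region, a bound protein can shield a few bases from cutting, which leaves a footprint.

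Reference sequence (RefSeq, GRCm38.p6, forward strand, 5′ to 3′) is shown for members that the results below turn on, with the bases in the same library's deposited footprints in capitals. For replicate 1 these are 3 of the 4 strongest members, a member beside the fast troponin gene Tnnt3 (central 300 bp of the peak) and one in a coding exon of the clock-output gene Dbp. The first 3 abut a peak of replicate 2 end to end.
Upstream of Fos, chr12:85455201-85455400: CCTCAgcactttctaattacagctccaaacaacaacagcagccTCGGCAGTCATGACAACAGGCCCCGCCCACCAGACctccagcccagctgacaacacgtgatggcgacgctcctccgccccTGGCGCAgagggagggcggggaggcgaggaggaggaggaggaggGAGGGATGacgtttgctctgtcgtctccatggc
Near Gm37238, chr13:48545561-48545800: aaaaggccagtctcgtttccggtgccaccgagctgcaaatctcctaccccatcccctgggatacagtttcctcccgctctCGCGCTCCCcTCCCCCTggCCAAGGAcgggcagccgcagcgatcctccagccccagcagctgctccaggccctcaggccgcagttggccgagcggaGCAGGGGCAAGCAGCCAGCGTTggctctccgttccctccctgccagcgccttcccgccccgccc
Near Cdk5rap3, chr11:96906441-96906600: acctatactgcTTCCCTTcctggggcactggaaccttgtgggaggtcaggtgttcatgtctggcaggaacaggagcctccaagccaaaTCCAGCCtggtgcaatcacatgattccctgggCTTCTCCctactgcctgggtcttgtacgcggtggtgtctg
Downstream of the Tnnt3 start, chr7:142516733-142517032: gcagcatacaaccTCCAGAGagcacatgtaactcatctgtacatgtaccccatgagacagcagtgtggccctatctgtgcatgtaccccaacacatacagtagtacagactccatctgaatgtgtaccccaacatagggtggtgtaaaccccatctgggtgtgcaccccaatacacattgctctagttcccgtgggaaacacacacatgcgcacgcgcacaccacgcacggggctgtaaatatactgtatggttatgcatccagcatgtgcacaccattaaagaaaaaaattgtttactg
In Dbp, chr7:45708381-45708500: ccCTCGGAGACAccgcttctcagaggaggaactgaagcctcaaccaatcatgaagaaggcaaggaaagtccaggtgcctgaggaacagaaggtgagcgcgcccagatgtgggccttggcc

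For replicate 2 the sequences are 3 of its strongest members, all beside promoter peaks of replicate 1, and then members over 1 kb from any replicate 1 peak: 2 of the 3 strongest (Lzts2 and Ccdc6) and those at an endothelial, a pericyte, a neuromuscular junction and a tendon gene. The peaks near Dok7 and Fmod each hold a match to the CTCF core motif, which lies inside a footprint. The nearest annotated start to the peak labelled Dok7 is that of Lrpap1.
Fam72a promoter, chr1:131527721-131527900: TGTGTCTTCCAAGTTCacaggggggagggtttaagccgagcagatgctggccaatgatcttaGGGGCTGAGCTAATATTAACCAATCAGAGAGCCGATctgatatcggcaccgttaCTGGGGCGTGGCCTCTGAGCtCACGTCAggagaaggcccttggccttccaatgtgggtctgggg
1700055D18Rik promoter, chr4:45012661-45012860: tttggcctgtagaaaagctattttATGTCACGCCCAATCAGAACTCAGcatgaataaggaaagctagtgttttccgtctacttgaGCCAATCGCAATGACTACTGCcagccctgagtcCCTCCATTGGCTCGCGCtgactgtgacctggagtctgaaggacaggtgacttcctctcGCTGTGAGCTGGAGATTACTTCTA
Coq7 promoter, chr7:118532981-118533180: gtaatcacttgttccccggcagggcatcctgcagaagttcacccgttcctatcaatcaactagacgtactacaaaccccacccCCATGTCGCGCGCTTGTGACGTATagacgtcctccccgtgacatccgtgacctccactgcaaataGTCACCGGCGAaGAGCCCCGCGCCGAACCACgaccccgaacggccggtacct
Lzts2 intron, chr19:45020441-45020620: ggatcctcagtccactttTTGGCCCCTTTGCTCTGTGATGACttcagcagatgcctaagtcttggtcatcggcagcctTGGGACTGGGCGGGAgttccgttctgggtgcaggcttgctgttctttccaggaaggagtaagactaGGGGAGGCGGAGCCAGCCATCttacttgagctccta
Ccdc6 intron, chr10:70159681-70159940: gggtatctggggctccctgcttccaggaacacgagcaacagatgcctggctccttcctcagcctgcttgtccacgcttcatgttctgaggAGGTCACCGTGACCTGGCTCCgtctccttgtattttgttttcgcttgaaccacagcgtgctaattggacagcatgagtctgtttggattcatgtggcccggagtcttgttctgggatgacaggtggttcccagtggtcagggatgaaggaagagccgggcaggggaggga
Upstream of Eng, chr2:32638041-32638300: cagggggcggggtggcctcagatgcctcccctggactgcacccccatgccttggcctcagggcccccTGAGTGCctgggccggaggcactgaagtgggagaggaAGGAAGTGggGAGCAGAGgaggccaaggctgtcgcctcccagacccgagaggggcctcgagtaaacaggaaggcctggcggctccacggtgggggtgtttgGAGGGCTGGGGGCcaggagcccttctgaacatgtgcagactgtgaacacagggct
Cspg4 intron, chr9:56891641-56891860: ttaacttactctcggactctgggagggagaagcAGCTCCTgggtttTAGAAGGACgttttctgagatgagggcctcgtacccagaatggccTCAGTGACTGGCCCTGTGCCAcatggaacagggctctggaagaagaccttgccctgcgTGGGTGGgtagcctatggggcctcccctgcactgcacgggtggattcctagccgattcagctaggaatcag
Near Dok7, chr5:35088881-35089080: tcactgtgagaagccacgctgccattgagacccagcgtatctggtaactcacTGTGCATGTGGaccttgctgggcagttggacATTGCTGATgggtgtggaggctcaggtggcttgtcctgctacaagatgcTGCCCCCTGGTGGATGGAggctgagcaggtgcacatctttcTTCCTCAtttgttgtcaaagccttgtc
Near Fmod, chr1:134048881-134049060: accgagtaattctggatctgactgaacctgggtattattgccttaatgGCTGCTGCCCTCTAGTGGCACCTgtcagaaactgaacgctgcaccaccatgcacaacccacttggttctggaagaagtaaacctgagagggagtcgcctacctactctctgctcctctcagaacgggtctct

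Most members lay just above the signal minimum. Median signal was 1.21 for the replicate 1 set and 1.25 for the replicate 2 set, and the strongest members reached 6.97 and 21.02. At the threshold, 6 members of replicate 1 had a signal of 1.00 (1.00111 in the file), among them peaks near Ebf3, H6pd, Fpgs and Ubald1, while 7 peaks without overlap, among them peaks near Foxo3, Dcaf11 and Rpl22, fell just short at 0.995. In replicate 2, 136 members stood at 1.00317, including peaks near Psma4, Bsx and Pard3, and 152 peaks just outside stood at 0.998, including peaks near Cnga3, Rfx8 and Sh3bp4. The scale of the signal is not stated, and it did not run level between the libraries. Overlapping replicate 1 peaks with signal from 1 to 1.5 met replicate 2 peaks with a median signal of 2.16, whereas overlapping replicate 2 peaks in that range met replicate 1 peaks with a median of 0.744.

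The share of peaks without overlap fell steeply with signal in both libraries. In replicate 2 it was 43.3% at signal 1 to 1.5, 22.3% at 1.5 to 2, 8.06% at 2 to 3, 2.60% at 3 to 5, 0.863% at 5 to 10 and 0.180% at 10 or more. In replicate 1 it was 3.48% at 1 to 1.5, 1.27% at 1.5 to 2 and 0.603% at 2 to 3, and none of its 435 peaks of signal 10 or more lacked overlap (upper limit 0.844%).

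**Figure D1:**
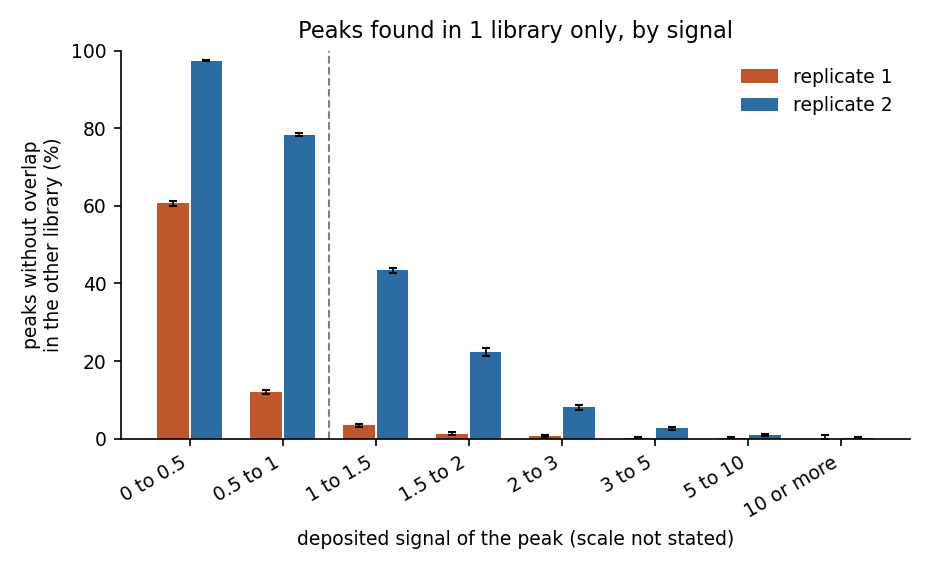
Share of peaks without overlap in the other library (y axis, percent) by deposited signal (x axis), with 95% exact intervals, for replicate 1 (orange) and replicate 2 (blue); the dashed line marks the signal minimum of 1. The share falls from 43.3% to 0.180% in replicate 2 and from 3.48% to 0 in replicate 1 over the strong peaks.

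The sets differed in how far they lay from the other library's peaks, a measure that the selection itself partly sets. Replicate 1 members lay a median of 108 bp from the nearest replicate 2 peak. Of them, 248 (60.05%) were within 150 bp, 399 (96.6%) within 1 kb and 29 touched a replicate 2 peak end to end. Replicate 2 members lay a median of 3480 bp from the nearest replicate 1 peak, with 1077 (11.1%) within 150 bp, 2926 (30.2%) within 1 kb and 6771 farther away. Segments of the other library's deposited segment file touched 363 replicate 1 members (87.9%) but 2092 replicate 2 members (21.6%). The p-value column of that file is read here as a false discovery rate of 0.05 or below, which no source states. Of the 248 replicate 1 members within 150 bp, 226 had a neighbour that itself overlapped a replicate 1 peak, and 395 of all 413 members had an own-library peak shared with replicate 2 within 1 kb. The nearest replicate 1 peak to a replicate 2 member had a median signal of 1.11 and was the stronger of the pair in 3923 cases (40.5%).

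**Figure D2:**
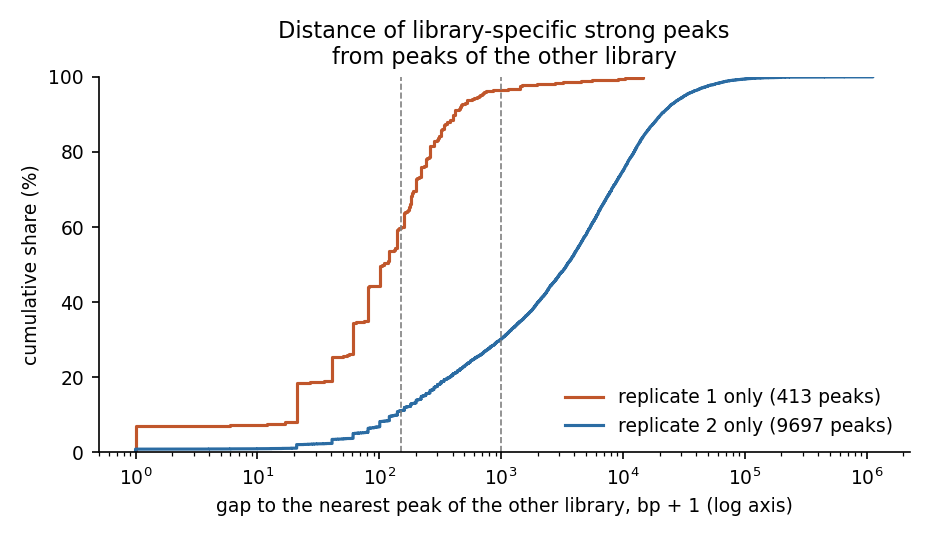
Cumulative share of members (y axis, percent) by gap to the nearest peak of the other library in bp plus 1 (log x axis), with dashed lines at 150 bp and 1 kb. The replicate 1 curve passes 96.6% at 1 kb, where the replicate 2 curve stands at 30.2%.

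The sets differed in location as a whole. By midpoint, 332 replicate 1 members (80.4%, 76.2 to 84.1) lay at a promoter, taken as 1 kb either side of a start in the GENCODE M21 annotation, against 62.3% of replicate 1's overlapping strong peaks, 48.6% of those with a signal of 1 to 2 and 40.6% of all its peaks. Introns held 6.78% of the members, intergenic DNA 8.72% and exons 4.12%. In replicate 2, 2620 members (27.0%, 26.1 to 27.9) were at promoters, below the 51.2% of overlapping strong peaks and the 34.5% of those with a signal of 1 to 2, and above the 20.1% of all its peaks. With replicate 2 held to the equal number of strongest peaks, its share at promoters was 46.5%. Introns held 42.3% of replicate 2 members, intergenic DNA 24.7% and exons 6.00%. Among the 6771 replicate 2 members over 1 kb from a replicate 1 peak, the promoter share was 15.4% and the intron share 49.0%, while the 1077 within 150 bp were 67.5% promoter peaks. Of the 14 replicate 1 members over 1 kb away, 4 were at promoters (28.6%, 8.39 to 58.1), an interval that includes the replicate 2 value of 15.4%. Of the 50 replicate 1 members that no replicate 2 segment touched, 52% were at promoters, against 19.7% in replicate 2.

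**Figure D3:**
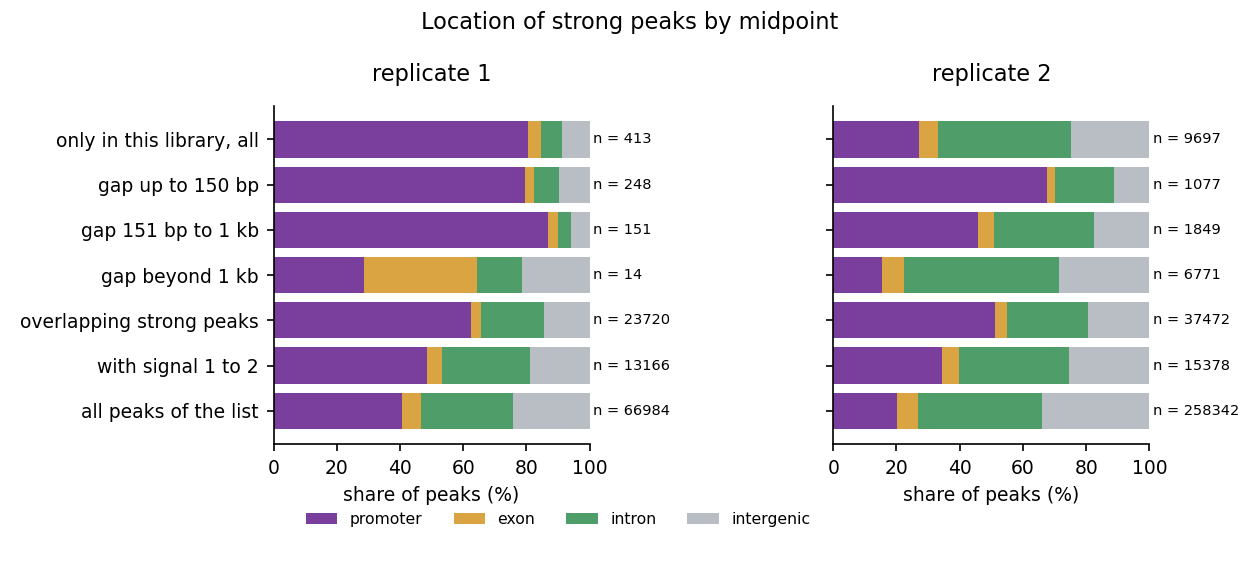
Share of peaks (x axis, percent) by midpoint location for members, members split by gap to the other library, overlapping strong peaks and all peaks; n gives the number of peaks. Promoters take 80.4% of replicate 1 members and 27.0% of replicate 2 members.

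Promoter members were centred elsewhere than overlapping promoter peaks, a difference that the selection itself partly sets. A member cannot share a base with a peak of the other library, and 98.8% of replicate 1 promoter members lay within 1 kb of one. The overlapping peaks had any signal of 1 or more and were not matched to the members in signal. Among overlapping strong promoter peaks of replicate 1, 60.9% had their midpoint within 100 bp of a start and 12.3% lay 100 to 500 bp downstream. Among the replicate 1 members these shares were 23.2% (18.8 to 28.1) and 46.4% (40.9 to 51.9), and 67.5% of them lay downstream of the start. Replicate 2 promoter members were spread more evenly, with 28.6% within 100 bp and 26.9% at 100 to 500 bp downstream, against 57.8% and 13.1% of overlapping peaks.

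**Figure D4:**
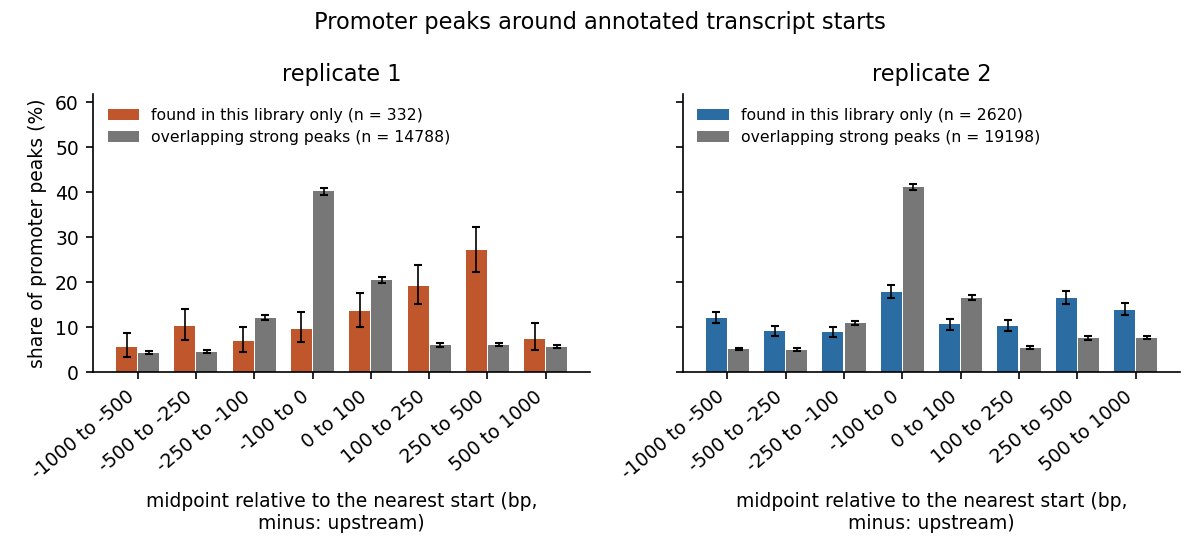
Share of promoter peaks (y axis, percent, with 95% exact intervals) by position of the midpoint relative to the nearest annotated start (x axis, bp, minus upstream); colour marks members and grey marks overlapping strong peaks. Members of replicate 1 peak at 250 to 500 bp downstream (27.1%), where overlapping peaks hold 6.15%.

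The strongest replicate 1 member (chr12:85455201-85455400, signal 6.97, sequence above) lay 18589 bp upstream of Fos, an AP-1 subunit induced within minutes of contraction or stress. It touched a replicate 2 peak with a signal of 22.9. The second, at 59 bp downstream of the start of Atf3, a stress-induced factor of the same family, had a signal of 5.49 and touched a replicate 2 peak of 15.1. The members near Gm37238 (5.16) and Cdk5rap3 (3.92) touched replicate 2 peaks of 18.6 and 5.80. For each of these 4, both libraries had a strong peak at the site, and the member met the replicate 2 peak without overlapping it. The members at Fos, Atf3 and Gm37238 also touched a stronger replicate 1 peak, with signals of 8.27, 6.996 and 6.56. The nearest other replicate 1 peak to the Cdk5rap3 member was 2938 bp away.

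The next 6 were all at promoters and 20 to 100 bp from a replicate 2 peak. They were nearest to Tmem143 (3.56), the kinase gene Dyrk1a (3.40), Bcl7b (3.32), which encodes a subunit of the BAF chromatin remodeller, Vps26c (3.23), Ints6 (3.19) of the Integrator complex, and Stx4a (3.08). Stx4a encodes syntaxin 4, a docking protein for vesicles that carry the glucose transporter GLUT4. The nearest replicate 2 peaks had signals from 10.9 at Tmem143 to 17.7 at Ints6. Over all 413 members the nearest replicate 2 peak had a median signal of 4.85 and was above the member's own signal in 369 (89.3%).

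Only 14 replicate 1 members lay over 1 kb from every replicate 2 peak, and all had a signal below 1.5. The strongest (1.36) and another (1.11) were in coding exons of Plin4, which encodes a perilipin of lipid droplets in muscle and fat. Fam181a had 2 such members (1.26 and 1.08), the nearest replicate 2 peak being 9072 bp away from the stronger. Tnnt3, which encodes the troponin T of fast fibres, had 2 intergenic members (1.09 and 1.02) at 2753 and 3586 bp downstream of a start. A member of 1.08 lay 211 bp from the start of Myhas, the antisense transcript in the fast myosin cluster next to Myh4. The remainder were nearest to Gse1 (1.22), Drap1 (1.16), Gm25432 (1.05), Coro7 (1.05), Ppp4c (1.04), Lamc1 (1.02), which encodes a laminin chain of basement membranes, and Pip5k1c (1.01). Segments of replicate 2 at a false discovery rate of 0.05 or below touched 3 of the 14.

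Gene windows, meaning the gene body plus 10 kb either side, held a replicate 1 member for 627 of 21938 protein-coding genes (2.86%). The most in a window was 5, at the neighbouring genes Car11, Dbp and Sphk2 and at the neighbours Hdgfl2 and Plin4, so these 5 genes stand for 2 places. Dbp encodes a PAR bZIP factor whose transcription cycles with the circadian clock. The Plin4 members reached into the window of Plin5, the perilipin of oxidative tissue, which held 4. Eif5a, Gps2 and Neurl4, also neighbours, held 3 each.

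Of 332 genes in 23 marker and pathway lists, 25 had a replicate 1 member, and 12 lists had none. The immediate early list, genes switched on by acute stimuli, had 5 of 18: Ier2 with 3 members up to 1.20, Atf3, Jund (2.07), Jun (1.15) and Egr2 (1.14). The list of atrophy and glucocorticoid response genes had 5 of 19, namely Cebpb (1.43), Foxo1 (1.20), Klf15 (1.11) and the metallothionein pair Mt1 and Mt2, which share 1 member (1.39). Fast fibre genes had 4 of 22 (Tnnt3, Tnni2, Eno3 and Myh4), clock genes 3 of 18 (Dbp with 5, Clock and Tef) and sarcomere genes 3 of 26 (Des, Ldb3 and Tcap). Single genes or pairs carried the others: Gsn and Col1a1 among fibroblast genes, Mef2a among myogenic regulators, Scx among tendon genes and Actb (2.50) among housekeeping genes. Des and Egr2 also stand in the smooth muscle and the Schwann cell list. Several of these members lie at a neighbour's promoter: that of Gm24877 for Col1a1, Bop1 for Scx, Speg for Des and Ado for Egr2. Of 104 strong replicate 1 peaks in the immediate early windows, 7 were members (6.73%, 2.75 to 13.4). In the clock windows 7 of 125 were (5.6%, 2.28 to 11.2), of which the Dbp window held 5. Some of those 5 were nearest to starts of the neighbours Car11 and Sphk2, not of Dbp. Only these lists had an interval above the 1.71% of all strong replicate 1 peaks. The atrophy list, with 4 of 129 (3.1%, 0.851 to 7.75), did not. These intervals count peaks as independent, but the 3 Ier2 members lay side by side at its promoter and 5 clock members shared the Dbp window. They therefore cannot set the immediate early and clock lists apart from the others. By nearest start, 14 list genes in place of 25 had a replicate 1 member, with none in the fibroblast, tendon, smooth muscle and Schwann cell lists and 1 in the sarcomere list.

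Those at Tnnt3 and Myh4 lay over 1 kb from a replicate 2 peak, and all the others lay within 1 kb. No replicate 1 member lay at a gene of the endothelial, macrophage, lymphocyte, adipocyte, satellite cell, slow fibre, neuromuscular junction, erythroid, hepatocyte, neuron, keratinocyte or heart lists. The windows of these lists held from 3 (keratinocyte) to 48 (slow fibre) strong replicate 1 peaks, and the interval of each count of 0 includes the overall 1.71%. On the tissue label, 19 of 22 fast fibre genes had an overlapping strong peak in their window in each library. Of 26 sarcomere genes, 24 (replicate 1) and 25 (replicate 2) did. Over all protein-coding genes the shares were 59.4% (replicate 1) and 67.0% (replicate 2). All 16 housekeeping and all 18 clock genes also had one in each library, so these counts do not single out muscle.

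All 10 strongest replicate 2 members were promoter peaks within 260 bp of a replicate 1 peak. The strongest (chr1:131527721-131527900, 21.02, sequence above) lay 92 bp upstream of a Fam72a start and 60 bp from a replicate 1 peak of 9.05. The second (chr4:45012661-45012860, 19.9) was 69 bp upstream of a start of the antisense transcript 1700055D18Rik, with a replicate 1 peak of 15.7 at 40 bp. Smad2, the transducer of TGF-beta and activin signals, had a member of 17.0 that touched a replicate 1 peak of 5.96, and the kinase gene Pim3 had one of 13.1. Zfp446 (11.9), Cblb (11.8), a ubiquitin ligase gene, Coq7 (9.81) of ubiquinone synthesis, Cdca2 (9.39), Dcaf11 (9.38) and the histone variant gene H2afv (9.01) followed. Replicate 1 thus had a called peak beside each of these sites, with signals from 5.92 at Coq7 to 16.1 at Cdca2.

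Farther from replicate 1 peaks, member signals were lower, with a maximum of 5.11. That member was in an intron of Lzts2 (chr19:45020441-45020620), 2206 bp from the nearest replicate 1 peak. The next were in introns of Cxxc5 (4.81) and Ccdc6 (4.43), and one after these lay 8424 bp upstream of Eng (chr2:32638041-32638300, 4.35), which encodes endoglin, a TGF-beta co-receptor of endothelium. Others were at Map3k11 (4.29), near the cold-inducible RNA-binding protein gene Cirbp (4.16), in an intron of the focal adhesion gene Pxn (3.97), and in an exon of Gm8098, 11326 bp upstream of the spectrin gene Sptbn1 (3.73). Of the distant members at promoters, the strongest was that at Map3k11, 594 bp from its start. Next was one 40 bp from Adamts4 (3.72), which encodes an aggrecan-cleaving protease. Then came those 85 bp from Tfeb (3.63), a regulator of lysosome genes, 90 bp from Nfic (3.59) and 29 bp from Rgs3 (3.42). No replicate 1 segment at a false discovery rate of 0.05 or below touched the Lzts2, Ccdc6, Eng, Adamts4, Tfeb, Nfic or Rgs3 members, and one did touch the Map3k11 member.

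Windows of 5757 protein-coding genes (26.2%) held a replicate 2 member, and 390 genes had 5 or more. Very long gene models led: Gm20388 had 97 members in a window of 4455 kb and Fgfr2 had 42 in 2981 kb. Among genes of more usual length, Gse1 had 22, Zmiz1 21, Tns1, which encodes the focal adhesion protein tensin 1, 20, and the septin gene Sept9 18. Nfix and Sh3pxd2a had 16 each, and Hspg2, which encodes the basement membrane proteoglycan perlecan, and Smg6 had 15 each. Members outnumbered overlapping strong peaks at Sept9 (18 to 11), Hspg2 (15 to 10) and Smg6 (15 to 14).

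Of the 332 list genes, 143 had a replicate 2 member. Among the 23 lists, the endothelial list had the largest share of members among the strong replicate 2 peaks in its windows. Of its 17 genes, 12 had a member (70.6%, against 26.2% of all protein-coding genes), a share that the immediate early list (72.2%) exceeded. Of 85 strong replicate 2 peaks in their windows, 36 were members (42.4%, 31.7 to 53.6, against 20.6% of all strong peaks), and 28 of those lay over 1 kb from a replicate 1 peak. With signal held to 1 to 2 the share was 29 of 46 (63.0%, 47.5 to 76.8), against 36.5% of all strong peaks in that range. Eng had 9 members (1.24 to 4.35) and 1 overlapping peak. Sox18, an endothelial SOX factor, had 6 (up to 3.35), the ETS factor Fli1 5 (up to 1.86), the VEGF receptor gene Flt1 4 (up to 2.40) and Egfl7 4 (up to 1.42). Members at a gene's own start were found for Cdh5, Erg, Robo4, Esam, Cldn5, Egfl7, Flt1 and Sox18. In bulk tissue, fewer nuclei of a cell type and less accessibility per nucleus cannot be told apart. The longer lists also differ in length, with 66984 peaks in replicate 1 and 258342 in replicate 2. The part of that difference in these shares was not tested.

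**Figure D5:**
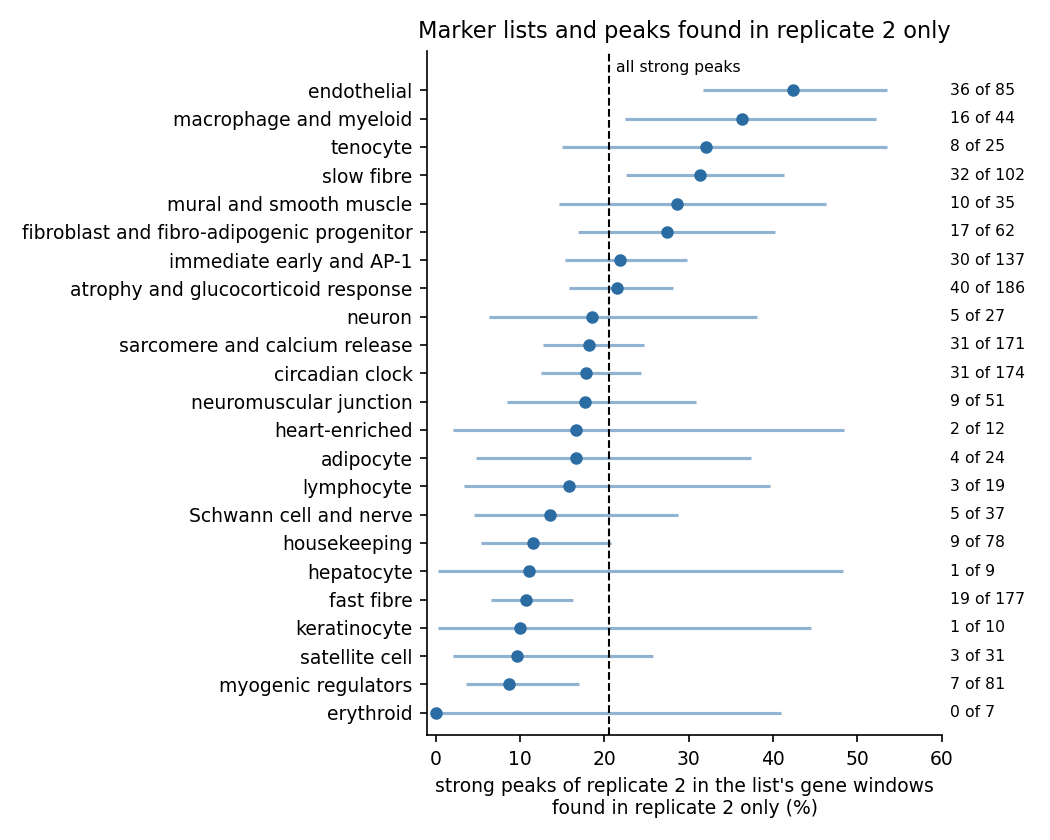
Share of strong replicate 2 peaks in each list's gene windows that are members (x axis, percent, point with 95% exact interval), with counts at the right; the dashed line is the share over all strong replicate 2 peaks, 20.6%. Endothelial genes lie highest at 42.4%, and the myogenic regulators and fast fibre genes lie at 8.64% and 10.7%.

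Among other non-fibre cell types, only the macrophage list had an interval above 20.6%, and at signal 1 to 2 its interval (52.0%, 31.3 to 72.2) included the 36.5% of all strong peaks. Macrophage genes had members at 5 of 14 genes, and 16 of 44 strong peaks in their windows were members (36.4%, 22.4 to 52.2). Cx3cr1, the fractalkine receptor gene, had 8 of these, but its window overlaps that of the fibre gene Xirp1 and its strongest member (1.57) lies in both. The lysosomal marker gene Cd68 had 4, the strongest (2.99) at the Mpdu1 promoter next to it. The myeloid factor gene Spi1 had 2 at its own promoter (2.24 and 1.13), and Cd14 and Tyrobp had 1 each, at the promoters of their neighbours Tmco6 (3.87) and Nfkbid (1.33). Lymphocyte genes had members at 1 of 14, Cd4 with 3, which were 3 of 19 strong peaks in the list's windows (15.8%, 3.38 to 39.6).

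Mural and smooth muscle genes had members at 5 of 11 genes and 10 of 35 strong peaks (28.6%, 14.6 to 46.3), or 10 of 17 (58.8%, 32.9 to 81.6) at signal 1 to 2. The pericyte gene Cspg4 had 5 (up to 1.56), Pdgfrb 2, and Acta2, Tagln and Notch3 1 each. Of these, the Tagln member (1.09) lay 47 bp from its start and 18167 bp from any replicate 1 peak. Fibroblast genes had members at 8 of 15 and 17 of 62 strong peaks (27.4%, 16.9 to 40.2), or 16 of 42 (38.1%, 23.6 to 54.4) at signal 1 to 2. They were led by Pi16 with 5 (up to 2.10), a marker of adventitial fibroblast progenitors, and Col1a1 with 4. Tendon genes had 4 of 8 and 8 of 25 strong peaks (32.0%, 14.9 to 53.5), or 8 of 15 (53.3%, 26.6 to 78.7) at signal 1 to 2. Fmod had 3, and Comp and Egr1 had 2 each. Schwann cell genes had 4 of 12 (Mbp with 2, and Prx, Pmp22 and Sox10) and 5 of 37 strong peaks (13.5%, 4.54 to 28.8). Adipocyte genes had 3 of 10 (Lipe with 2, Fabp4 and Pparg) and 4 of 24 strong peaks (16.7%, 4.74 to 37.4). The Schwann cell and adipocyte shares lay below the 20.6% of all strong peaks, with intervals that include it.

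Fast and slow fibre genes differed in share, which is given as a description with no test. Fast fibre genes had members at 14 of 22, but only 19 of 177 strong replicate 2 peaks in their windows were members (10.7%, 6.59 to 16.3). Pygm, the muscle glycogen phosphorylase gene, had 3 members up to 2.01. Eno3 had 2, of which the stronger (6.98) was at the promoter of the neighbouring Spag7, and Casq1 and Actn3 had 2 each. Myh1 and Myh4, fast myosin heavy chain genes, had 2 each and no overlapping strong peak. These windows overlap, and both hold the intronic member of 1.29 that lay 7215 bp from a replicate 1 peak. Myogenic regulators showed a low share as well, 7 of 81 (8.64%, 3.55 to 17.0), with Mef2d at 3 members and Mef2c at 2.

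Slow fibre genes had members at 10 of 18, and 32 of 102 strong peaks in their windows were members (31.4%, 22.5 to 41.3). At signal 1 to 2 the share was 31 of 59 (52.5%, 39.1 to 65.7) for slow and 14 of 75 (18.7%, 10.6 to 29.3) for fast fibre genes, on either side of the 36.5% of all strong peaks in that range. Nfatc1, the calcineurin-regulated factor of slow fibre gene expression, had 14 members (1.01 to 1.91), and Tead1 had 6 (up to 1.72). Tnni1, the slow troponin I gene, had 4 (1.21 to 1.49), all over 1 kb from a replicate 1 peak. Tnnt1, the slow troponin T gene, had 1 (1.94) at 153 bp from its start and 7080 bp from any replicate 1 peak. Myl6b (3.86, at the promoter of the adjacent Myl6), Atp2a2 (1.55), Ppargc1a (1.24), Esrrg (1.31) and Myh7b (1.12) had 1 each and Mb 2. Nfatc1 and Tead1 together account for 20 of the 32 members in this list.

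Genes of the sarcomere and of calcium release had members at 14 of 26 and 31 of 171 strong peaks (18.1%, 12.7 to 24.7), close to the share over all strong peaks. Ldb3, a Z-disc protein gene, had 6 (1.07 to 1.83), the ryanodine receptor gene Ryr1 5, Stac3 4 and Nrap 3. Neuromuscular junction genes had members at 7 of 12 and 9 of 51 strong peaks (17.6%, 8.401 to 30.9). Among them Dok7, an activator of the kinase MuSK, had 1 of 2.11 and Chrnb1 and Musk had 2 each. The Dok7 member was intergenic, and its nearest annotated start was that of Lrpap1, 13533 bp away. Satellite cell genes had 3 of 11, with 1 member each at Pax7 (1.36), Heyl (1.48) and Sdc4 (1.01). These were 3 of 31 strong peaks in the list's windows (9.68%, 2.04 to 25.8), an interval that includes the 20.6% of all strong peaks.

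Over all strong peaks, the genes of acute and cyclic responses lay near 20.6%. Immediate early genes had members at 13 of 18 and 30 of 137 strong peaks (21.9%, 15.3 to 29.8). At signal 1 to 2 their share was 23 of 42 (54.8%, 38.7 to 70.2), above the 36.5% of all strong peaks in that range. The phosphatase gene Dusp1 had 6 (up to 3.91), Jund 4 and Nr4a1, Fosb and Btg2 3 each. The Nr4a3 member of 4.12 was 52 bp from its start and 100 bp from a replicate 1 peak. Atrophy and glucocorticoid response genes had members at 13 of 19 and 40 of 186 strong peaks (21.5%, 15.8 to 28.1). Zbtb16, a glucocorticoid-induced zinc finger gene, had 14 (up to 3.26), Ddit4 6, and Foxo1, Fkbp5 and the ubiquitin ligase gene Trim63 3 each. Clock genes had members at 10 of 18 and 31 of 174 strong peaks (17.8%, 12.4 to 24.3), with Rora at 8, Nr1d1, which encodes REV-ERB alpha, at 7, Arntl at 4 and Cry2 at 3.

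Lists for other organs had few strong replicate 2 peaks, and the intervals of their shares include 20.6%. Neuron genes had members at 3 of 15 (Tubb3, Dlg4 and Rbfox3) and 5 of 27 strong peaks (18.5%, 6.30 to 38.1). Heart genes had 2 of 12 (Hand2 and Tnni3, the latter through the peak at the adjacent Tnnt1) and 2 of 12 strong peaks (16.7%, 2.09 to 48.4). Hepatocyte genes had 1 of 15 (Hnf4a), keratinocyte genes 1 of 11 (Sfn) and erythroid genes 0 of 10. Housekeeping genes had 7 of 16, with 9 of 78 strong peaks (11.5%, 5.41 to 20.8), of which Ppia held 3 and a single member, at Pgk1, lay over 1 kb from a replicate 1 peak.

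Members of both libraries fell in the windows of 342 of 21938 protein-coding genes. A replicate 1 member stood in 2.86% of these windows and a replicate 2 member in 26.2%. Of the 332 list genes, 16 had members of both libraries. These were Eno3, Myh4, Tnni2 and Tnnt3 of the fast fibre list, Ldb3 and Tcap of the sarcomere list, Dbp and Tef of the clock list, Cebpb, Foxo1 and Klf15 of the atrophy list, and Jund, Col1a1, Gsn, Scx and Actb. At Tnnt3, for example, replicate 1 had its pair of intergenic members while replicate 2 had 1 member (1.09) at 729 bp from a start.

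Sequence around the midpoints (150 bp) differed between the sets and from overlapping peaks. Median GC content was 64.7% in replicate 1 members, 62% in its overlapping strong peaks and 59.3% in those of signal 1 to 2. In replicate 2 it was 56.0%, 59.3% and 56.7%. Median CpG observed over expected was 0.631, 0.620 and 0.423 in replicate 1, and 0.281, 0.465 and 0.326 in replicate 2. Outside promoters these gaps were small in replicate 2, with GC at 55.3% and 56.0% and CpG at 0.244 and 0.252. Own footprints touched 54.7% of replicate 1 members (49.8 to 59.6) against 93.8% of its overlapping strong peaks and 89.5% of those of signal 1 to 2. In replicate 2 the shares were 86.8%, 91.9% and 85.2%. The replicate 2 members over 1 kb from a replicate 1 peak had one in 96.0%, those within 150 bp in 48.2%.

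Consensus motifs were sought on both strands in the same 150 bp windows, and a match is a description of letters, not of binding. Values for all peaks of a library cover every location, so they are not matched to the other sets in location. Outside promoters, the muscle E-box CAGCTG stood in 22.3% (21.4 to 23.3) of 7077 replicate 2 members, 26.0% (25.1 to 26.8) of overlapping peaks of signal 1 to 2 and 14.6% of all replicate 2 peaks. The MEF2 motif stood in 0.523% (0.368 to 0.720), 1.17% (0.970 to 1.40) and 0.291%, and the glucocorticoid response element (GRE) in 0.466% (0.321 to 0.654), 1.13% (0.934 to 1.36) and 0.398%. Members had the higher share for the PU.1 motif GAGGAAGT, with 2.57% (2.22 to 2.97), 1.52% (1.29 to 1.78) and 1.41%, and for the SOX motif ACAAAGG, with 3.09% (2.70 to 3.52), 2.23% (1.95 to 2.54) and 2.72%. For these 5 motifs, taken from 20 searched, the intervals of members and overlapping peaks did not meet. Not all of the 20 are given here. The AP-1 motif (TGACTCA or TGAGTCA) stood in 8.49% and 8.08%, the TEAD motif GGAATG in 11.02% and 11.03%, and the RUNX motif TGTGGTT in 3.33% and 2.82%, with intervals that overlap. The CTCF core stood in 3.98% and 4.40%, and 81.1% of its 285 matches in members lay in a footprint, against 82.1% of 447 in overlapping peaks.

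The 81 replicate 1 members outside promoters are too few for most motifs. The E-box CAGCTG stood in 18 (22.2%, 13.7 to 32.8, against 27.5% of overlapping peaks of signal 1 to 2 and 17.0% of all replicate 1 peaks), the GRE in 3, AP-1 in 2 and MEF2 in none (upper limit 4.45%). At promoters, the SP/KLF motif GGGGCGGGG stood in 5.12% of replicate 1 members (3.01 to 8.07) against 13.2% of overlapping promoter peaks, 9.58% (8.87 to 10.3) of those of signal 1 to 2 and 4.28% of all peaks. In replicate 2 it stood in 6.03% of members (5.15 to 7.01), 12.5%, 6.64% (5.99 to 7.35) and 1.71%. The ETS motif CCGGAAGT stood in 1.51%, 4.83%, 3.50% and 1.38% in replicate 1, and in 0.878%, 4.69%, 1.13% and 0.597% in replicate 2. In replicate 2 the promoter members and the overlapping promoter peaks of signal 1 to 2 had overlapping intervals for both motifs. The values for all peaks again cover every location and are not a baseline for promoter peaks.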

How the data were processed

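Per the labels, DNase-seq was done on 2 gastrocnemius libraries and positions are on mm10. The deposited README files derive each peak list from alignments of the same library. Which aligner and peak caller made them is not given in the sources used here. The authors' signal, 1 value per peak in every deposited list, has no stated scale. Segments carry a deposited p-value column, read here as a false discovery rate, and footprints one that held 0.01 throughout. Read depth is not given, so the precision of a single peak is unknown.

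The longer of 2 peak lists per library was used. Overlap meant 1 shared bp, checked with bedtools 2.31.1. A peak's midpoint set its location in GENCODE M21: promoter first, then exon or intron, otherwise intergenic. Sequence came from RefSeq GRCm38.p6. Tables and figures were made with pandas 2.3.3, numpy 2.4.6, scipy 1.17.1 and matplotlib 3.10.9 under Python 3.11.15, and the functions were tested on simulated data. Members, gene lists and motifs were chosen with earlier results of these data known. Named were the 10 strongest members per library, the 10 genes with most members, up to 5 genes per list, members at the threshold, and list genes with members of both libraries; the 14 strongest members over 1 kb away and further list genes were added after their values were seen. No samples were left out.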

Additional observations from a re-analysis of the deposited data

How the results depend on the processing

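Counts of members depend on the signal minimum, since the share without overlap falls with signal. At a minimum of 0.5 there were 3112 members in replicate 1 (53.0% at promoters, 89 list genes) and 48155 in replicate 2 (21.6%, 253). At 2 there were 38 (92.1%, 3) and 860 (51.2%, 25). With as many strongest peaks in replicate 2 as replicate 1 has, its set fell to 1054 members (46.5%, 32 list genes). With no peak of the other library within 150 bp, replicate 1 had 165 members and 13 list genes, and the promoter share in replicate 2 was 22.0%. With none within 1 kb, an alternative chosen after seeing the data, replicate 1 had 14 members (28.6%, 2 list genes), and the share in replicate 2 was 15.4%. With segments of the other library also absent, replicate 1 had 50 members (52.0%, 6), and the share in replicate 2 was 19.7%. The shorter lists gave a promoter share of 71.9% in replicate 1 and 17684 members in replicate 2. With promoters of 500 bp the shares were 69.7% and 19.9%, with 2 kb 86.9% and 36.4%, and with protein-coding starts 23.8% in replicate 2. By nearest start, 14 list genes had a replicate 1 member.

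The replicate 1 share at promoters exceeded that of replicate 2 in every alternative run. Leaving out a replicate gives no value, since membership needs both lists. No paired analysis was possible because each set comes from 1 library and no test was made. The deposited signal has no stated scale and depth is unknown, so counts at a common minimum compare the lists as deposited.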

Other observations

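On the X chromosome, 84 of 774 strong replicate 2 peaks were members (10.9%, 95% exact interval 8.75 to 13.3), below the 20.6% of all strong replicate 2 peaks. In replicate 1 it held 2 of 397 (0.504%, 0.0611 to 1.81), an interval that includes the 1.71% of all its strong peaks. Among autosomes the share in replicate 2 ran from 15.9% on chromosome 13 to 24.1% on chromosome 15. The list genes with X-linked members were Foxo4 (2.94, 127 bp from its start) and Tsc22d3, which encodes the glucocorticoid-induced leucine zipper GILZ, with 2 up to 1.13, both of the atrophy list, and Hprt (1.27) and Pgk1 (1.42) of the housekeeping list.

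The nearest annotated start belonged to a protein-coding gene for 87.4% of replicate 1 members (83.8 to 90.5), against 79.5% of overlapping strong peaks, and for 69.1% of replicate 2 members (68.2 to 70.03) against 73.7%. Long intergenic RNAs were nearest for 3.15% and 8.99% of members. The 413 replicate 1 members had 386 distinct nearest genes and the 9697 replicate 2 members 6012.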
